A study of Drosophila melanogaster with 6 samples.

Results

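Gcn5 peaks at the Notch gene (N) and at the Enhancer of split complex, E(spl), with the neighbouring gene gro were described in the Drosophila melanogaster cell lines Kc and S2. The peaks are those that overlap X:3020000-3075000, the window of N, or 3R:21815000-21880000, the window of the complex and gro, on build dm3. They number 21 of the 14386 peaks in 3 lists, with 8 of 4228 in Kc cells treated with CP190 double-stranded RNA, 7 of 5096 in Kc cells treated with GFP double-stranded RNA, and 6 of 5062 in S2 cells treated with GFP double-stranded RNA. Overlapping peaks of the 3 lists were joined into 10 sites, lettered A to F along the N window and G to J along the E(spl) window.

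The lists come from ChIP-seq, in which chromatin is immunoprecipitated and its DNA sequenced. Gcn5 is the histone acetyltransferase of the SAGA and ATAC coactivator complexes, and CP190 is a zinc-finger protein found at insulators and at many promoters. Kc and S2 are embryo-derived lines. The RNA was given at 90 µg for every 6000000 cells in each group, and the GFP RNA, which has no target in these cells, was the control. Chromatin was fixed in 1% formaldehyde and precipitated with a polyclonal antibody to Gcn5 raised in rabbit, at 5 µg each time. Each group is 1 library, so no difference below has a replicate check and none was tested. The read depth is unknown. The remaining CP190 was not measured in these lists. The 3 input libraries were not analysed here.

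Notch is a cell-surface receptor. When a neighbouring cell presents a ligand, its intracellular part is cut free, enters the nucleus and joins the DNA-binding protein Su(H) to switch on target genes. The best known targets are the genes of the E(spl) complex. Their bHLH proteins are transcriptional repressors that work with Groucho, the corepressor encoded by gro, for example to limit how many cells become neural precursors. S2 cells are a common recipient for Notch transgenes because they are known for making little or no Notch of their own. No expression was measured here.

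All 9 members named for these windows were found in a RefSeq gene table of assembly Release 6, which was used only for names and gene order. In it, 19 genes run from E(spl)mdelta-HLH to gro, of which 13 are protein-coding. The 7 bHLH repressor genes are E(spl)mdelta-HLH, E(spl)mgamma-HLH, E(spl)mbeta-HLH, E(spl)m3-HLH, E(spl)m5-HLH, E(spl)m7-HLH and E(spl)m8-HLH, in that order. Between them lie 4 genes of the Bearded family, which encode small proteins known to inhibit the ubiquitin ligase Neuralized and with it Notch signalling, namely E(spl)malpha-BFM, E(spl)m2-BFM, E(spl)m4-BFM and E(spl)m6-BFM. Kaz-m1, whose older name is E(spl)m1, lies between E(spl)malpha-BFM and E(spl)m2-BFM. The gene gro follows E(spl)m8-HLH at the end. N stands between CG4116 and CG18508. The table's build differs from that of the peaks, so no peak was placed on an individual gene, and the windows are named as a whole.

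In the GFP RNAi libraries more Gcn5 peaks were called in the N window than in the E(spl) window, and with CP190 RNAi the numbers were equal. In the N window 4 peaks were called in Kc cells with CP190 RNAi, 5 in Kc cells with GFP RNAi and 5 in S2 cells. In the E(spl) window 4 peaks were called with CP190 RNAi, 2 in the Kc control and 1 in S2 cells. The peaks of the N window covered 5406 bp (9.83% of the window) with CP190 RNAi, 7562 bp (13.7%) with GFP RNAi and 5513 bp (10.0%) in S2 cells. Those of the E(spl) window covered 6174 bp (9.50%) with CP190 RNAi, 4105 bp (6.32%) in the Kc control and 2718 bp (4.18%) in S2 cells. Bases outside the windows were not counted.

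By number of peaks, the receptor gene's window was richer than most stretches of its length, and the window of its target genes was not in the control libraries. Such a number depends on how signal is split into peaks, and covered bases were not ranked against tiles. Chromosomes X and 4 and both arms of chromosomes 2 and 3 were cut into 2184 tiles of 55 kb, as long as the N window. A tile held a median of 1 peak in the CP190 RNAi list, 2 in the Kc control list and 2 in the S2 list. More peaks than in the N window were found in 10.1% of the tiles with CP190 RNAi, in 4.53% in the Kc control and in 6.14% in S2 cells. Fewer were found in 81.1%, 88.3% and 87.0%, in the same order, and the remaining tiles held the same number. For the E(spl) window, 1848 tiles of 65 kb were used, with a median of 2 peaks in each list. More peaks than in the E(spl) window were found in 14.3% of the tiles with CP190 RNAi, in 47.1% in the Kc control and in 69.3% in S2 cells. Fewer were found in 76.1%, 35.0% and 14.2%.

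**Figure D1:**
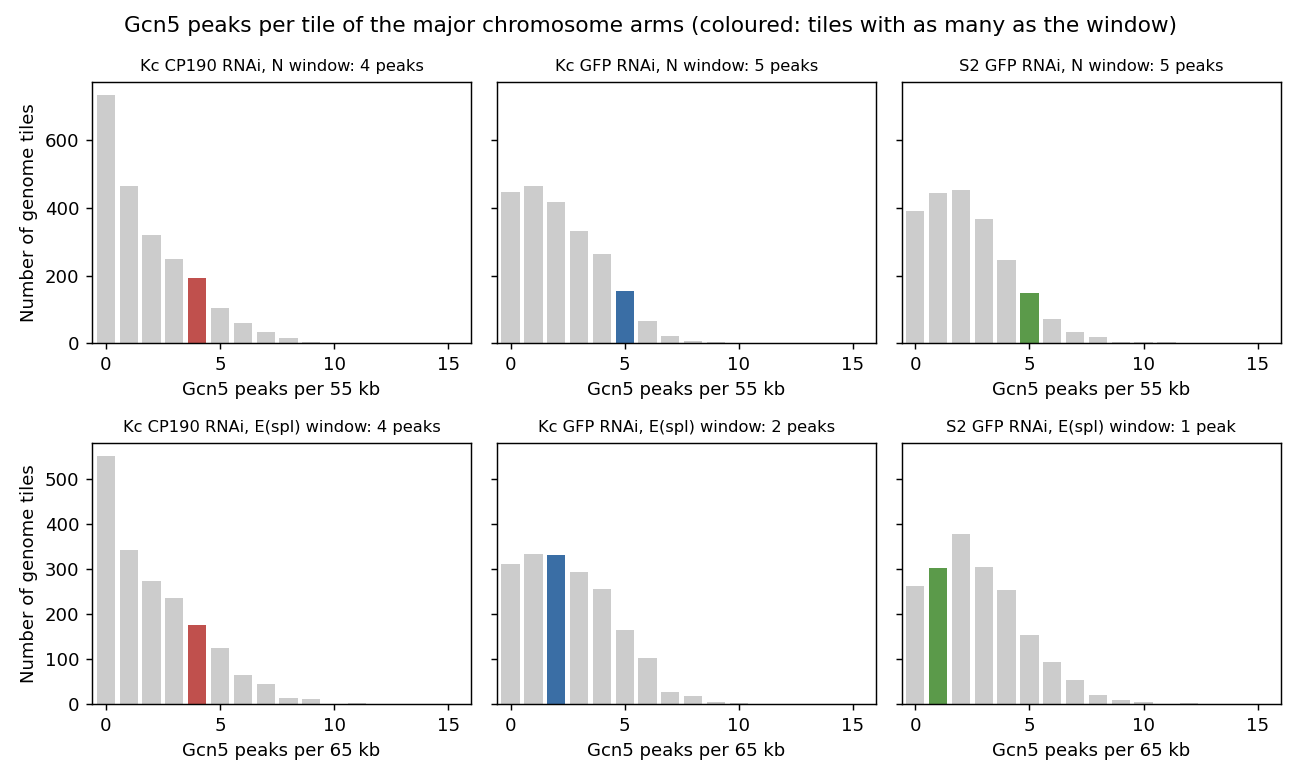
Number of Gcn5 peaks per tile of the major arms (horizontal axis) against the number of tiles (vertical axis), for tiles as long as the N window (55 kb, upper row) and the E(spl) window (65 kb, lower row), in the 3 libraries. The coloured bar holds the tiles with as many peaks as the window, 4, 5 and 5 for N and 4, 2 and 1 for E(spl), from left to right.

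The N window held 6 sites, of which 3 were called in every library. Site A, the first of these, lay at X:3028201-3029767 with CP190 RNAi, at X:3028123-3030516 in the Kc control and at X:3028126-3029735 in S2 cells. Its score, read here as the peak caller's value for the peak, was 176.55 with CP190 RNAi (rank 998 of 4228), 236.45 in the Kc control (rank 1384 of 5096) and 540.70 in S2 cells (rank 817 of 5062). The scale of the score is not stated in the files, so scores were compared only within a list, by rank or with peaks of similar score. A common cutoff of 100 was used only to see how the counts depend on it. Ranks in lists of different length show no change between libraries. Site A was the highest-scored N peak of both Kc lists and the second of the S2 list.

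Site D lay at X:3066692-3067815 with CP190 RNAi, at X:3066711-3067821 in the Kc control and at X:3066708-3067724 in S2 cells. Its scores were 175.52 with CP190 RNAi (rank 1013), 188.23 in the Kc control (rank 1876) and 714.66 in S2 cells (rank 566). In S2 cells it was the highest-scored peak of the N window, above 88.8% of that list. In both Kc lists it came second, close behind site A with CP190 RNAi and farther behind it in the Kc control.

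Site E lay beside site D, separated by 722 bp with CP190 RNAi, by 681 bp in the Kc control and by 887 bp in S2 cells. It was called at X:3068538-3069549 with CP190 RNAi, at X:3068503-3069545 in the Kc control and at X:3068612-3069514 in S2 cells. It was a weak peak everywhere, with a score of 59.17 with CP190 RNAi, 59.66 in the Kc control and 97.18 in S2 cells. That was above 11.8%, 8.18% and 32.2% of the peaks of these lists, and it was the lowest-scored N peak of both Kc lists.

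Site F was the 1 N site of the Kc control list that the CP190 RNAi list lacked. It was called at X:3070832-3072103 in the Kc control with a score of 171.39 (rank 2080) and at X:3070866-3072101 in S2 cells with a score of 371.29 (rank 1249). The Kc control and S2 peaks there agreed within 34 bp at the start and 2 bp at the end. Sites D, E and F followed each other within 5.39 kb in both control libraries, whereas with CP190 RNAi sites D and E were called and the next peak to the right was 51.4 kb away. Of the 461 Kc control peaks with a score within 10% of that of site F, 33.4% had no CP190 RNAi peak. The absence of a call does not show the absence of Gcn5.

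The other 2 N sites were called in Kc cells alone or in S2 cells alone. Site C was called in both Kc lists and not in S2 cells, at X:3055766-3057468 with CP190 RNAi (score 84.45, rank 2793) and at X:3055713-3057454 in the Kc control (score 110.52, rank 3091). Of the 486 Kc control peaks with a score within 10% of that of site C, 51.2% had no S2 peak. Site B was called in S2 cells alone, at X:3038190-3038936, with a width of 747 bp and a score of 51.69 (rank 4953), close to the lowest score of the list (50.02). Of the 351 S2 peaks scored within 10% of it, 72.6% had no Kc control peak, so most S2 calls of this strength had no counterpart in the Kc control list.

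**Figure D2:**
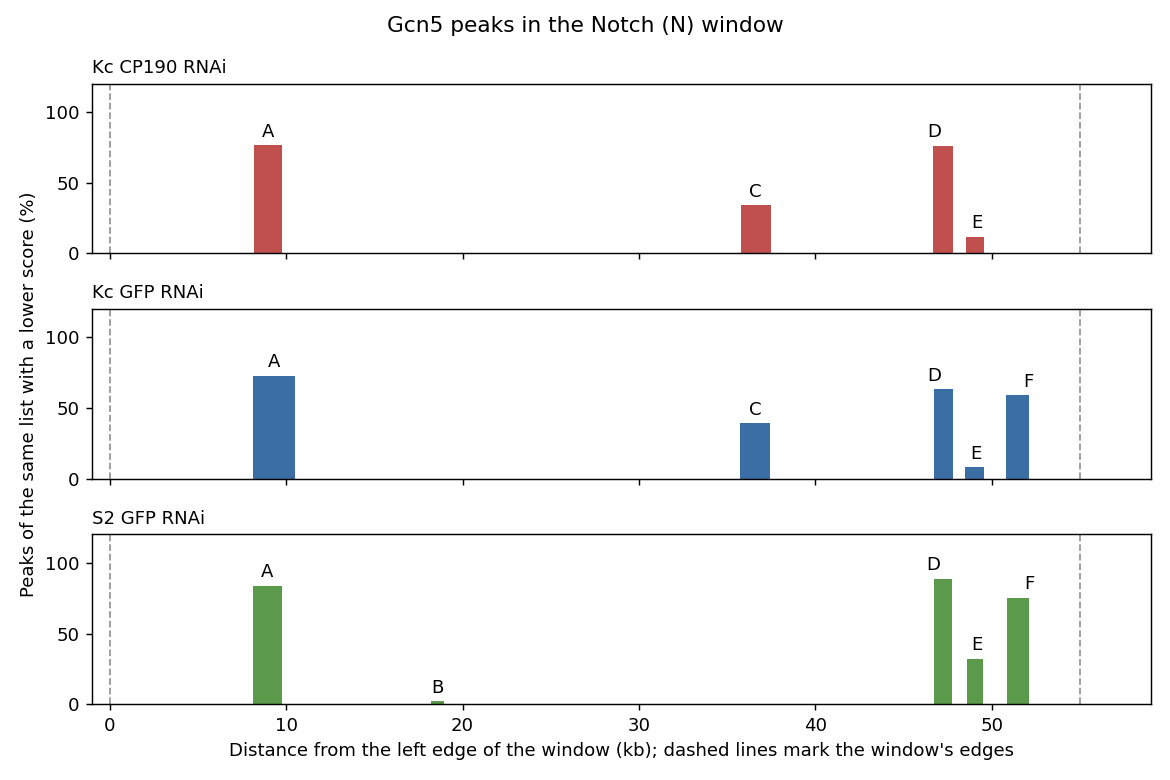
Gcn5 peaks in the N window by library, drawn to scale along the distance from the window's left edge (kb). Bar height is the percentage of peaks of the same list with a lower score. Sites A, D and E have a bar in all 3 rows, site F in the rows of both GFP RNAi libraries, site C in both Kc rows and site B in the S2 row alone.

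The N sites were cut off from other Gcn5 peaks on the left side in Kc cells. No peak was called over the 184.4 kb before site A with CP190 RNAi or over the 184.1 kb before it in the Kc control, whereas the S2 list had a peak 27.4 kb before it, at X:2999992-3000719. On the X chromosome 6 of the 841 gaps between neighbouring Kc control peaks were at least as long, and 18 of 715 with CP190 RNAi. In S2 cells 250 of 845 gaps were at least as long as 27.4 kb. To the right of the last N peak, the next peak was 51.4 kb away with CP190 RNAi, 74.3 kb away in the Kc control and 60.7 kb away in S2 cells. Of the gaps on the X chromosome, 16.4%, 8.44% and 11.1% were at least as long, in the same order. The median gap there was 8.50 kb with CP190 RNAi, 11.0 kb in the Kc control and 12.5 kb in S2 cells.

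The E(spl) window held 4 sites, and 1 of them, site J, was called in every library. Site J lay at 3R:21877364-21879201 with CP190 RNAi (score 173.15, rank 1042), at 3R:21877371-21879201 in the Kc control (score 102.34, rank 3293) and at 3R:21877283-21882867 in S2 cells (score 56.53, rank 4732). The Kc peaks ended at the same base and began within 7 bp of each other. The S2 peak began within 88 bp of the Kc control peak and ran 3666 bp farther right, past the window's edge. At 5585 bp it was wider than 99.1% of the S2 list and scored above 6.52% of it.

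Just outside the window, the ground under the wide S2 peak was called differently in the Kc lists. The S2 peak of site J covered or met 3 peaks of the CP190 RNAi list, namely site J and the peaks at 3R:21880501-21881782 (score 137.27) and 3R:21881820-21882929 (score 96.26). It met 1 peak of the Kc control list, site J. Both outer CP190 RNAi peaks had no Kc control peak, which held for 29.6% of the whole CP190 RNAi list. The share among peaks of similar score is not given for them. The nearest Kc control peak to the right lay at 3R:21883461-21885800 (score 61.31), where CP190 RNAi (3R:21882997-21884507, score 95.24) and S2 cells (3R:21882887-21885682, score 174.88) also had one. To the left, the nearest peak was at 3R:21808088-21809279 with CP190 RNAi and at 3R:21808065-21809272 in the Kc control, 5721 and 5728 bp from the window's edge. In S2 cells it lay 31688 bp from the edge.

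Site I was called in both Kc lists and not in S2 cells. It lay at 3R:21866926-21868962 with CP190 RNAi (score 171.99, rank 1058) and at 3R:21866761-21869034 in the Kc control (score 221.90, rank 1494). In the Kc control it stood well above site J, whereas with CP190 RNAi sites I and J were next to each other in score. Site I was the highest-scored Kc control peak of the window and had no S2 peak. Of the 402 Kc control peaks scored within 10% of it, 31.6% had no S2 peak.

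Sites G and H were called with CP190 RNAi alone. Site G lay at 3R:21831307-21832529 with a score of 63.53 (rank 3516 of 4228) and site H at 3R:21836889-21837964 with a score of 77.61 (rank 3019). Both were weak within their list, above 16.8% and 28.6% of its peaks. Their scores compare with a median of 77.3 for the 1250 peaks of the whole list that had no Kc control peak. Of the 557 CP190 RNAi peaks scored within 10% of site G, 47.6% had no Kc control peak, and of the 515 scored within 10% of site H, 45.6%. Across the genome, calls of this strength often lacked a control peak.

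**Figure D3:**
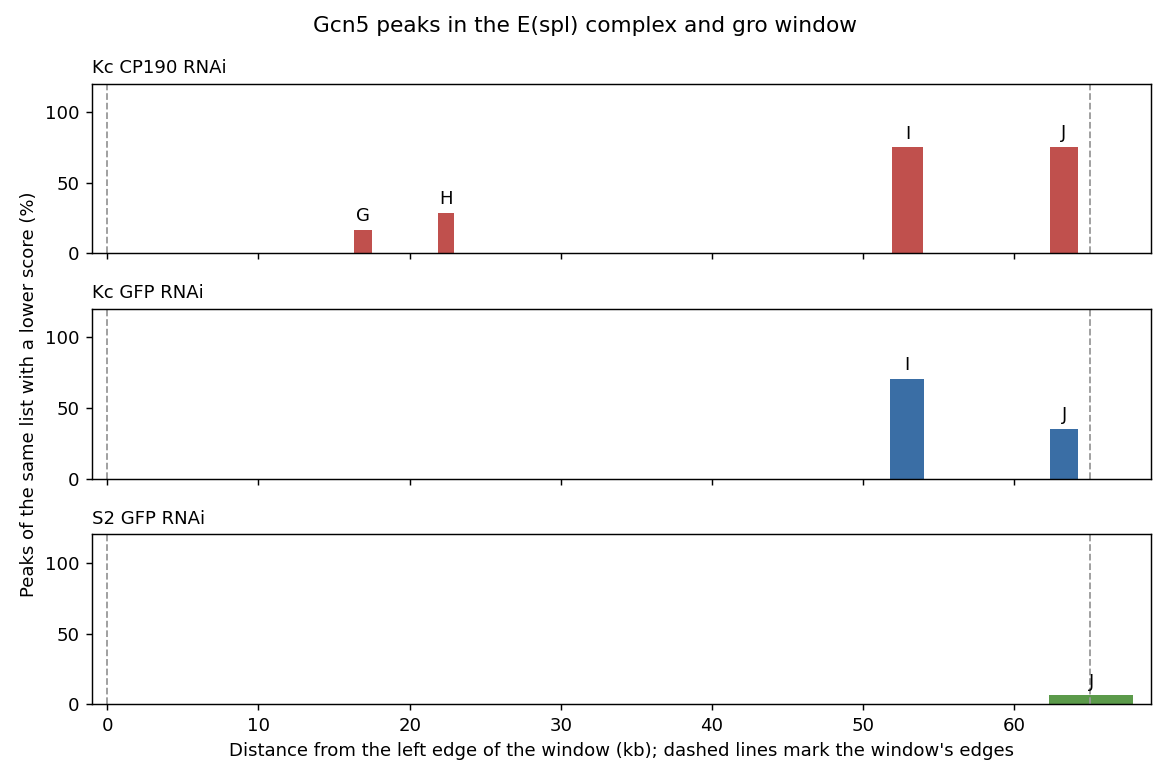
Gcn5 peaks in the window of the E(spl) complex and gro by library, drawn to scale along the distance from the window's left edge (kb), with bar height as the percentage of peaks of the same list with a lower score. Site J at the right edge has a bar in all 3 rows, site I in both Kc rows, and sites G and H in the CP190 RNAi row alone.

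In the control libraries the left part of the E(spl) window had no peak. The stretch 3R:21809273-21866760 was free of peaks in the Kc control (57.5 kb), and 3R:21783313-21877282 in S2 cells (94.0 kb). Of the gaps between neighbouring peaks on 3R, 109 of 1115 (9.78%) were at least as long in the Kc control and 45 of 1130 (3.98%) in S2 cells. The median gap there was 12.3 kb in the Kc control and 12.7 kb in S2 cells. With CP190 RNAi sites G and H broke this stretch into gaps of 22.0, 4.36 and 29.0 kb. The median gap on 3R in that list was 10.5 kb.

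The first comparison, the one named in the study's design, sets CP190 RNAi against GFP RNAi in Kc cells. Over both windows, 1 of the 7 Kc control peaks, site F of N, had no CP190 RNAi peak (14.3%, exact 95% binomial interval 0.361 to 57.9%), against 42.2% of the whole control list. The interval covers counting error only and includes the share of the whole list. It treats the peaks of 1 library as independent, although some are close neighbours, and it is no test. With so few peaks it is too wide to show a difference or its absence. Of the 8 CP190 RNAi peaks, 2 had no control peak, sites G and H of E(spl) (25.0%, 3.19 to 65.1%), against 29.6% of the whole CP190 RNAi list, which this interval includes too. In the N window each of the 4 CP190 RNAi peaks met a control peak, and in the E(spl) window both control peaks met a CP190 RNAi peak.

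Where a site was called in both Kc libraries, its edges were close. At sites C, D, E and J the starts differed by 7 to 53 bp and the ends by 0 to 14 bp. Site I was 2037 bp wide with CP190 RNAi and 2274 bp in the control, with starts 165 bp and ends 72 bp apart. Site A was 1567 bp wide with CP190 RNAi and 2394 bp in the control, and its right end lay 749 bp farther left with CP190 RNAi, which placed it 32 bp from the S2 end. In bases, 99.3% of what the N peaks covered with CP190 RNAi was also covered in the control, and 71.0% of what they covered in the control was also covered with CP190 RNAi. For E(spl) these shares were 62.7% and 94.2%, and over the whole lists 68.3% and 57.2%.

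**Figure D4:**
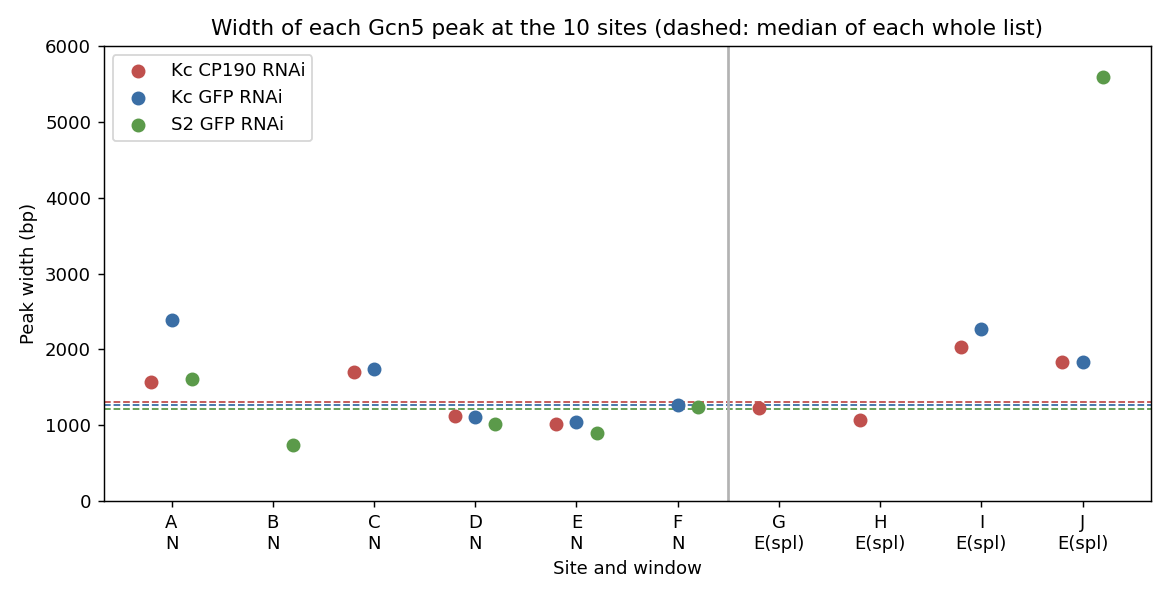
Width of each peak (bp) at the 10 sites, with the CP190 RNAi, Kc control and S2 peaks of a site side by side from left to right and the median width of each whole list as a dashed line. The S2 peak of site J is 5585 bp wide, and the Kc control peak of site A is wider than the other peaks there.

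The second comparison sets Kc against S2 cells, both with GFP RNAi. Of the 7 Kc control peaks, 2 had no S2 peak, site C of N and site I of E(spl) (28.6%, 3.67 to 71.0%), against 40.3% of the whole Kc control list. Of the 6 S2 peaks, 1 had no Kc control peak, site B of N (16.7%, 0.421 to 64.1%), against 39.6% of the whole S2 list. Both intervals include the share of the whole list, but with so few peaks they are too wide to show a difference or its absence. In bases, 63.0% of what the N peaks covered in the Kc control was also covered in S2 cells, and 86.4% of what they covered in S2 cells was also covered in the Kc control. For E(spl) these shares, counted inside the window, were 44.6% and 67.4%, and over the whole lists 52.8% and 55.2%. The 67.4% leaves out the part of the S2 peak of site J beyond the window's edge. Of that peak's full 5585 bp, 32.8% was covered in the Kc control. Sequence names carry the chr prefix in the Kc lists and not in the S2 list, so the processing may have differed, and processing and cell line cannot be told apart.

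The order of the N peaks by score differed between the lines. In the Kc control it ran A, D, F, C and E, and with CP190 RNAi it ran A, D, C and E. In S2 cells it ran D, A, F, E and B. Sites A, D and F were the top 3 in both control libraries.

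Setting the 3 libraries side by side, 5 of the 7 Kc control peaks had an S2 peak, and 1 of these 5, site F, had no CP190 RNAi peak. Across the genome 47.9% of the Kc control peaks with an S2 peak had no CP190 RNAi peak. The other 2 Kc control peaks, sites C and I, had no S2 peak and were both called with CP190 RNAi, and 33.9% of such peaks across the genome were not. In all, 4 of the 10 sites were called in every library, namely A, D and E of N and J of E(spl). The share of such sites across the genome is not given here, so this count cannot be set against it. With lists of equal length, or with a score of at least 100, sites A and D alone were in every list, which leaves 2 sites.

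The peaks of both windows included higher-scored and lower-scored calls of each list. Peaks above the median score of their list numbered 4 of 8 with CP190 RNAi, 4 of 7 in the Kc control and 3 of 6 in S2 cells. In the middle of their ranking, they scored above 54.5% of the list with CP190 RNAi, 59.2% in the Kc control and 53.8% in S2 cells (medians over 8, 7 and 6 peaks). With CP190 RNAi their scores fell from 171.99 at site I to 84.45 at site C, with no peak between. In S2 cells they fell from 371.29 at site F to 97.18 at site E. The medians for CP190 RNAi and S2 cells lie in these gaps and describe no single peak. The best rank among the peaks of both windows was 998 with CP190 RNAi, 1384 in the Kc control and 566 in S2 cells. Peaks wider than the median of their list numbered 4 of 8 with CP190 RNAi, 5 of 7 in the Kc control and 3 of 6 in S2 cells. The median widths of the whole lists were 1308 bp with CP190 RNAi, 1271 bp in the Kc control and 1209 bp in S2 cells.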

How the data were processed

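The deposited files are 1 peak list per Gcn5 library, with a score per peak whose scale, origin and any normalization are not stated in the files. The peak names begin with MACS, and the score is read here as the peak caller's value. The submitters' processing notes name build dm3 and, with no version or role, Bowtie, MACS, bedtools and HOMER. The peak threshold and whether inputs were used are not stated there. The chr prefix of the Kc lists was removed and starts were taken as 0-based, so printed positions are 1-based. Peaks overlapping by at least 1 bp counted as shared. Shares have exact (Clopper-Pearson) 95% intervals for counting error. Counting was tested on simulated data, with Python 3.11.15, pandas 2.3.3, numpy 2.4.6 and scipy 1.17.1. Tiles start at the first base of each arm, which was taken to end at the farthest peak. The members and windows were chosen with earlier results of these data known, and all peaks in them are named. Tiles, gaps and score bands of 10% were added after the data were seen. Groups came from the sample titles. No dm3 genome, annotation or sequence was used here. Alternatives covered the overlap rule, the score threshold, list length, merging of peaks and the window edges.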

Additional observations from a re-analysis of the deposited data

How the results depend on the processing

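The 4 counts of unshared peaks were recomputed under 8 alternatives, and 23 of the 32 values stayed within 1.5 times the count reported. The shares of the whole lists under these alternatives are not given here. The counts below therefore show how the calls depend on the rule and cannot be set against the genome. Requiring that 50% of the counted S2 peak be covered, or 50% reciprocally, gave 2 of 6 S2 peaks with no Kc control peak, because the wide peak of site J was then unshared. With centres within 250 bp, 2 of 7 Kc control peaks had no CP190 RNAi peak (sites A and F), 4 of 7 had no S2 peak and 3 of 6 S2 peaks had no Kc control peak. Keeping peaks that score at least 100 gave 2 of 6 Kc control peaks with no CP190 RNAi peak (sites C and F), 0 of 4 CP190 RNAi peaks with no control peak and 0 of 3 S2 peaks with no Kc control peak, since sites B, G and H score lower. That cutoff removes 44.6% of the CP190 RNAi list, 34.5% of the Kc control list and 33.4% of the S2 list. Site C was unshared there because its CP190 RNAi peak, with a score of 84.45, was removed. Windows widened by 10 kb gave 4 of 12 CP190 RNAi peaks with no control peak, the 2 added ones lying right of the E(spl) window. Site F had no CP190 RNAi peak under any of the 8. Among these, counting peaks within 1000 bp as shared was the only rule that could have given it one. The other alternatives could not change this result and are no check of it. With lists of equal length the count of S2 peaks with no Kc control peak was 1 of 4, and that peak was site E, not site B. With 6 to 8 peaks per library, 1 peak moves a share by more than 10 percentage points. No paired analysis was possible because each group has 1 library, and none could be left out.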
